A study of Mus musculus with 12 samples.

Results

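TM4 is a mouse line of Sertoli cells, the somatic cells that nurse germ cells in the testis, and the genes described here are those whose expression in TM4 cells did not overlap between 3 libraries of cells given shM5 and 3 libraries given shNC. shM5 is a mixture of 3 short hairpin RNAs against Chrm5, which encodes the M5 muscarinic acetylcholine receptor, delivered with a lentiviral vector. shNC is the control hairpin in the same vector, so both groups carried the vector. A gene was a member when all 3 shM5 values lay above, or all 3 below, the 3 shNC values and when its mean over the 6 libraries was at least 0.5 RPKM (reads scaled by gene length and by the number of mapped reads). Of 17995 genes in the series, 11016 reached this level in TM4 cells and 2953 of them were members. The series also holds 6 libraries of C18-4, a mouse spermatogonial stem cell line, with 3 libraries of each treatment. The labels give the strain of all samples as IRC, in that spelling where the study's text has ICR, name 1 line per cell type, and do not say whether libraries came from separate cultures, so p-values measure only the spread between these libraries, which may be technical.

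Muscarinic receptors respond to acetylcholine, and M5 signals through the Gq class of G proteins, phospholipase C and calcium. Sertoli cells build the blood-testis barrier from tight, adherens and gap junctions, and they secrete factors such as glial cell line-derived neurotrophic factor and stem cell factor that act on germ cells. The study asked which genes of the Sertoli line respond to loss of M5, with cell junctions as its main interest.

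The library labelled shNC replicate 3 stood apart from the other control libraries, and the counts over all genes and over each gene list are given with and without it. Over the 11016 genes, the root mean square difference on the log2(RPKM + 0.1) scale was 0.189 between shNC 1 and shNC 2, but 0.64 and 0.642 between shNC 3 and these libraries. From shNC 3 to shM5 1, 2 and 3 the same measure was 0.257, 0.253 and 0.202, which is within the range of 0.201 to 0.271 among the shM5 libraries themselves. The labels put this library in the control group and it was kept there. Summed RPKM was 512868 to 538387 per TM4 library. The depth in reads is unknown, but the step between low values, which is what 1 read is worth, differed between TM4 libraries only from 0.966 to 1.016 relative to shNC 1.

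Chrm5 itself could not serve as a check of the knockdown. It was listed at 0.01 RPKM in shNC 1 and at 0 in the other 5 TM4 libraries. Chrm1, Chrm3 and Chrm4 had at most 0.22 RPKM in any TM4 library. Chrm2 was not analysed here. At the protein level, the study reported less M5 in TM4 cells given shM5, by immunofluorescence.

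Of 26 marker genes of Sertoli cells, 21 were in the file and 7 reached a mean of 0.5 RPKM in TM4 cells, among them Vim, Sox9, Gata4, Inha, Dhh and Inhbb. Sox9, the testis-determining transcription factor, had 1.74, 1.13 and 1.19 RPKM in shNC 1 to 3 and 1.17, 1.11 and 1.43 RPKM in shM5 1 to 3, with full overlap. Wt1, another transcription factor that defines these cells, lay between 0.06 and 0.15 RPKM in TM4 cells, against 53.93 to 72.32 RPKM in C18-4 cells. Gata1, Nr5a1, Aard and Trf were at 0 in all 6 TM4 libraries. Many defining markers of the labelled cell type were therefore at or near 0, and the libraries are called TM4 throughout. Among markers of other testis cells, 9 of 18 germ cell genes were at 0, and Etv5 alone reached 0.5 RPKM. Of 8 peritubular myoid (contractile) genes, 5 reached it, and their summed level was 162.7 to 315.1 RPKM in the shNC libraries and 293.5 to 420.2 RPKM in the shM5 libraries. Cnn1, Actg2 and Acta2, 3 of these 5 genes (60%, against 15.7% of all genes measured), were members, all higher with shM5. Without shNC 3 all 5 were higher, against 42.5% of all genes. The highest shNC sum was that of shNC 3. Replicate 3 was the highest library in all 5 genes, both with shNC and with shM5. The summed level of 11 fibroblast genes was 2170 to 2962 RPKM with shNC and 2725 to 3236 RPKM with shM5. The fibroblast genes went both ways. Of 9 that reached 0.5 RPKM, 2 were higher members (22.2%) and 1 was lower (11.1%), and without shNC 3 the counts were 6 (66.7%) and 1 (11.1%). The lower member was Twist2 with 129.66, 129.91 and 97.69 RPKM against 76.95, 72.89 and 78.65 RPKM. Markers of Leydig, macrophage and endothelial cells held no member. The part of these genes in the other results was not tested. In such bulk libraries, fewer cells of a kind and less RNA per cell cannot be told apart.

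With shM5, 1735 genes were higher, which is 15.7% of the genes measured, and 1218 were lower, which is 11.1%, so that 26.8% of all genes measured were members. These shares are the background against which the gene groups below are read. The balance of directions depended on the scaling. With size factors, which moved the median log2 difference of all genes from 0.036 to -0.002, 1377 genes were higher and 1561 lower without overlap. The log2 difference had a median of 0.38 among the higher genes and -0.39 among the lower genes, and it passed 1 in size for 84 higher and 102 lower genes. With limma on all 6 libraries, no gene of the 11016 (0%) had an adjusted p below 0.05, and none reached the threshold of the study, an adjusted p of at most 0.001 with a log2 ratio of at least 1. The smallest adjusted p was 0.192, although 2866 genes (26%) had an unadjusted p below 0.05. The study used its threshold with another test, from the DEGseq package, and reported fewer increased than decreased genes in TM4 cells. An exact permutation test of 3 libraries against 3 cannot go below p = 0.1. When shNC 3 was left out, the limma fit called 4031 genes higher and 3399 lower, and groups did not overlap for 4677 higher (42.5%) and 4022 lower genes (36.5%). All directions given below are therefore those of the values.

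For each member, the place of shNC 3 was measured on the log2 scale between the mean of the shM5 libraries, set to 0, and the mean of shNC 1 and 2, set to 1. The median place was 0.27. shNC 3 lay nearer to the shM5 mean in 2239 members (75.8%) and nearer to the other controls in 714 (24.2%). In 240 members it lay within 0.25 of the mean of the other controls on this scale.

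**Figure D1:**
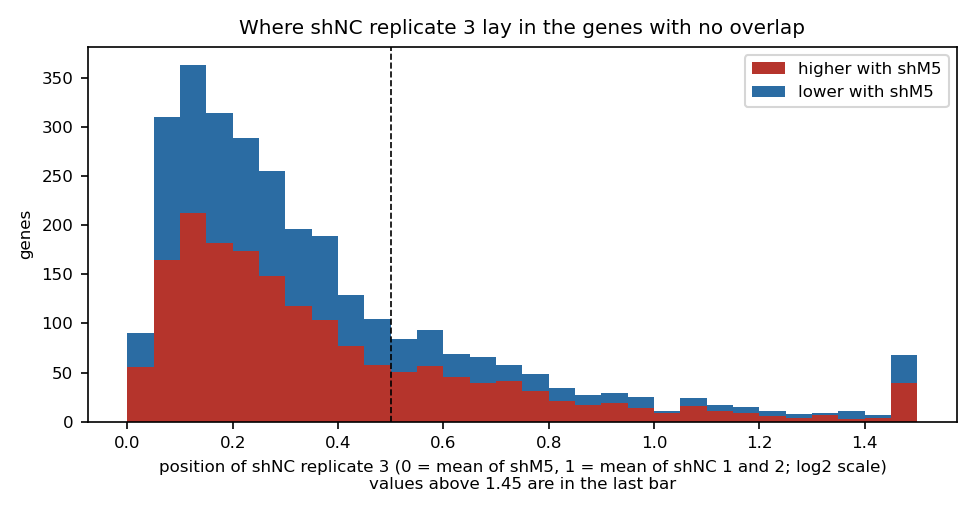
Number of member genes (vertical axis) by the place of shNC replicate 3 between the mean of the shM5 libraries (0) and the mean of shNC 1 and 2 (1) on the log2 scale (horizontal axis), with genes higher with shM5 in red and lower in blue; the dashed line marks the midpoint. Most members lie left of the midpoint, 2239 of 2953, with a median of 0.27.

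The genes with the widest gaps are described first. The gap is the distance on the log2(RPKM + 0.1) scale between the nearest values of the groups, and the 15 widest in each direction with a mean of at least 5 RPKM are shown by library in the plot of the widest gaps. Each had a limma adjusted p of 0.192, so none passed the test.

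**Figure D2:**
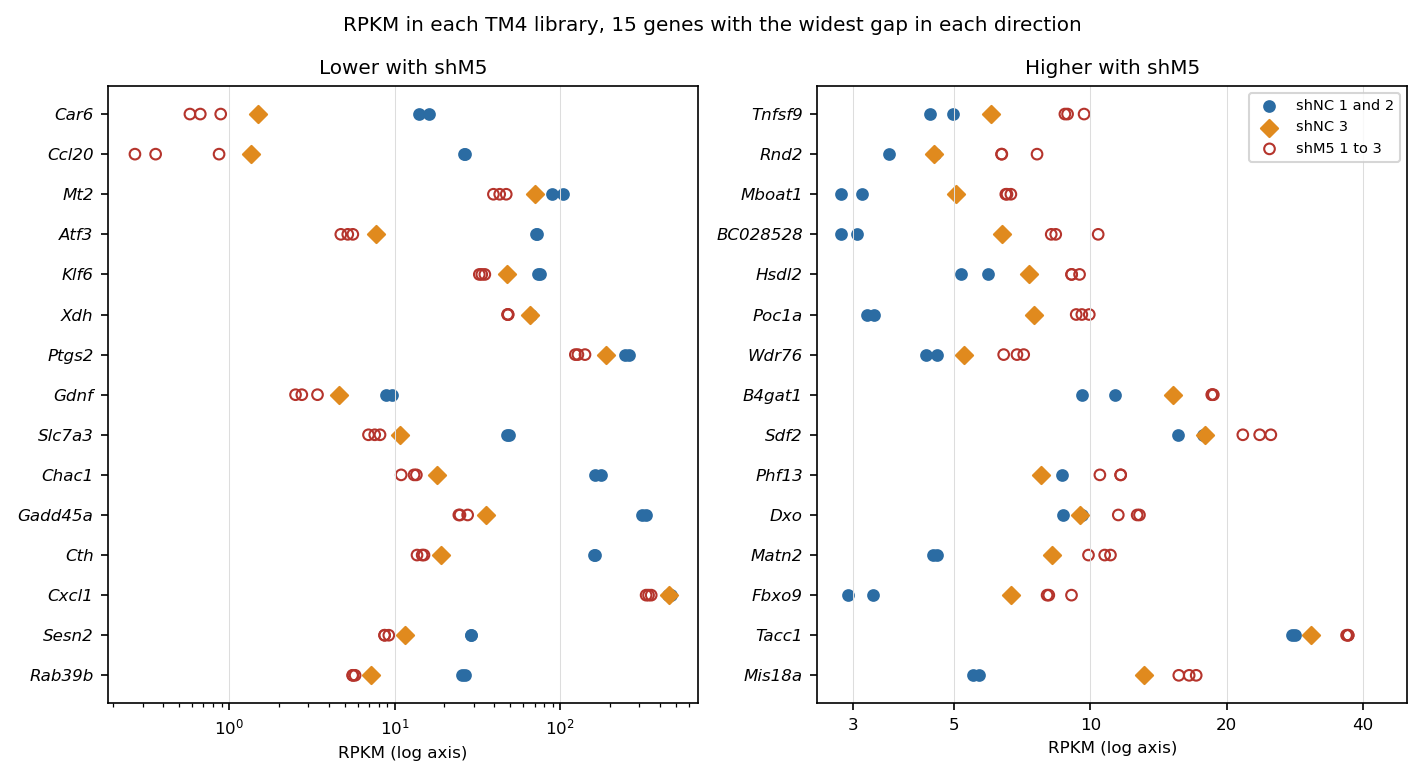
RPKM on a log axis in each of the 6 TM4 libraries for the 15 genes with the widest gap in each direction, with shNC 1 and 2 as blue dots, shNC 3 as an orange diamond and shM5 as open red circles. shNC 3 always lies on the control side of the gap, next to shM5 for Chac1 and Cth and next to the other controls for Xdh, Cxcl1 and Phf13.

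Car6, which encodes a secreted carbonic anhydrase, had the widest gap among the lower genes of at least 5 RPKM, with 14.08, 16.07 and 1.5 RPKM in shNC 1 to 3 and 0.58, 0.67 and 0.89 RPKM in shM5 1 to 3. Ccl20, a chemokine that attracts lymphocytes and dendritic cells, had 26.37, 26.58 and 1.35 RPKM with shNC and 0.27, 0.36 and 0.87 RPKM with shM5, a log2 difference of -4.20 ± 1.16 (SE). In both genes the groups did not overlap, but shNC 3 was close to the shM5 libraries and far from shNC 1 and 2. Atf3, a transcription factor of the stress response, showed the same arrangement with 72.40, 71.01 and 7.76 RPKM against 4.73, 5.59 and 5.21 RPKM. Gadd45a, a growth arrest and DNA damage gene, had 329.47, 311.62 and 35.50 RPKM against 27.60, 24.82 and 24.42 RPKM. Slc7a3, a carrier of cationic amino acids, had 47.67, 49.09 and 10.81 RPKM against 7.58, 6.95 and 8.16 RPKM, and Rab39b, a small GTPase of vesicle traffic, had 25.58, 26.72 and 7.21 RPKM against 5.57, 5.61 and 5.77 RPKM. For all of these the size of the difference rested on shNC 1 and 2.

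In another set of lower genes shNC 3 lay midway or on the side of the other controls. Mt2, a metallothionein that binds zinc and copper, had 104.66, 89.37 and 70.46 RPKM with shNC and 39.50, 43.10 and 47.21 RPKM with shM5, or 88.2 ± 17.1 and 43.3 ± 3.86 RPKM (SD, n = 3 each), a log2 difference of -1.01 ± 0.16 (SE). Ptgs2, the inducible cyclooxygenase of prostaglandin synthesis, had 247.69, 259.76 and 188.47 RPKM against 127.90, 123.46 and 141.20 RPKM. Klf6, a zinc finger transcription factor, had 72.95, 75.52 and 47.55 RPKM against 32.47, 33.60 and 35.06 RPKM. In these 3 genes every control library stood well above every shM5 library. Xdh, xanthine dehydrogenase of purine breakdown, had 65.77, 66.36 and 66.03 RPKM with shNC and 48.55, 48.28 and 48.09 RPKM with shM5, a mean of 66.0 ± 0.30 against 48.3 ± 0.23 RPKM (SD, n = 3 each). Cxcl1, a neutrophil chemokine, had 446.00, 466.22 and 453.51 RPKM against 354.60, 330.33 and 341.65 RPKM. For Xdh and Cxcl1, shNC 3 lay between the other controls, and their log2 differences of -0.45 ± 0.06 and -0.41 ± 0.06 (SE) had the smallest errors among the 15 lower genes.

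Gdnf, the niche factor that keeps spermatogonial stem cells renewing, was among the 15 lower genes. Its values were 9.67, 8.90 and 4.59 RPKM with shNC and 2.75, 2.52 and 3.42 RPKM with shM5, and shNC 3 lay between the other controls and shM5. The log2 difference was -1.32 ± 0.30 (SE), and without shNC 3 it was -1.66.

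Among the higher genes of at least 5 RPKM, Tnfsf9, the ligand of the costimulatory receptor 4-1BB, had the widest gap, with 4.42, 4.99 and 6.04 RPKM with shNC and 9.69, 8.79 and 8.91 RPKM with shM5. Rnd2, a small GTPase that acts on the actin cytoskeleton, had 4.55, 3.59 and 4.53 RPKM against 7.63, 6.38 and 6.37 RPKM. Phf13, a chromatin reader, had 8.67, 7.79 and 7.79 RPKM against 11.67, 11.67 and 10.50 RPKM. In these 3 genes shNC 3 was nearer to the other controls, and the log2 differences were 0.82 ± 0.13, 0.68 ± 0.14 and 0.48 ± 0.09 (SE). Sdf2, an endoplasmic reticulum protein, had 15.62, 17.74 and 17.93 RPKM against 25.03, 23.65 and 21.71 RPKM. Dxo, an enzyme that removes faulty RNA caps, had 9.57, 8.71 and 9.47 RPKM against 12.84, 12.69 and 11.53 RPKM, and Tacc1, a centrosomal coiled-coil protein, had 28.24, 27.81 and 30.73 RPKM against 36.78, 37.06 and 37.10 RPKM. Poc1a, a centriole protein, showed the other arrangement, with 3.33, 3.21 and 7.53 RPKM against 9.58, 9.31 and 9.95 RPKM, and so did Mis18a, which loads centromeric histones, with 5.52, 5.68 and 13.12 RPKM against 17.13, 16.53 and 15.68 RPKM. Mboat1, BC028528, Hsdl2, Wdr76, B4gat1, Matn2 and Fbxo9 made up the rest of the 15, with log2 differences from 0.52 to 1.21.

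In 109 members, 71 higher and 38 lower, the gap between the groups was wider than the range within either group. This criterion was added after the data had been seen. The log2 difference of these genes was 0.04 to 1.14 in size with a median of 0.24, and it passed 0.5 for 12 higher and 4 lower genes. Beside Mt2, Xdh, Cxcl1, Tnfsf9 and Rnd2, they included further genes that are named here after their values were seen. Lgals3, the lectin galectin-3, had 367.41, 368.83 and 327.65 RPKM with shNC and 244.86, 250.39 and 280.05 RPKM with shM5. Krt80, a keratin, had 25.34, 25.48 and 24.48 RPKM against 19.77, 19.15 and 21.41 RPKM. For Krt80 the 3 controls were close together, while shNC 3 of Lgals3 lay between the other controls and shM5, at a place of 0.67.

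Members were then counted in 26 lists of genes by function. In each list the share of members is set beside the 15.7% higher and 11.1% lower of all genes measured, and the median log2 difference of all listed genes beside that of all genes, 0.04. Counts without shNC 3 are to be read against the 42.5% higher and 36.5% lower of all genes in that setting, and counts in C18-4 cells against 9.1% higher and 9.2% lower. Some lists differed in C18-4 cells too. There 32 of 79 ribosomal protein genes were lower and 0 higher, 17 of 51 matrix genes lower and 9 higher, and 10 of 27 glycolysis genes lower and 1 higher. The lists were compiled with earlier results of these data known, and the counts are a description.

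**Figure D3:**
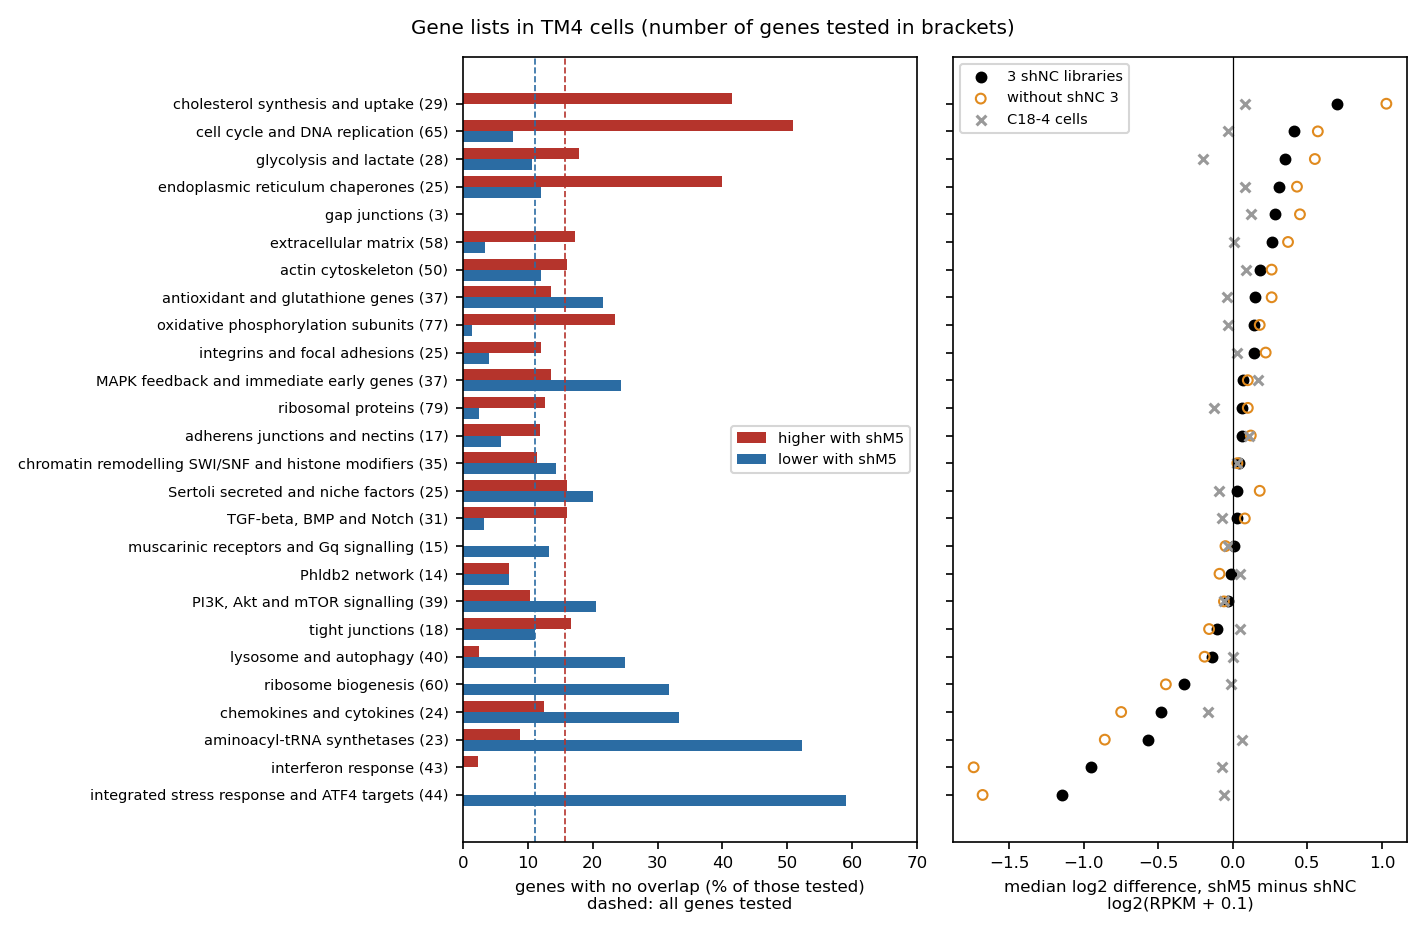
Left, share of the measured genes of each list (number in brackets) whose groups did not overlap, higher in red and lower in blue, with dashed lines for all genes measured (15.7% and 11.1%). Right, median log2 difference of each list with all 3 shNC libraries (black), without shNC 3 (open orange) and in C18-4 cells (grey crosses). The medians run from -1.15 for the integrated stress response to 0.70 for cholesterol synthesis in TM4 cells, and from -0.20 to 0.17 in C18-4 cells.

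The integrated stress response was the group with the largest median difference. In this response, stalled translation initiation raises the transcription factor ATF4, which turns on amino acid transport and synthesis. Of 44 genes measured, 26 (59.1%) were lower with shM5 and none was higher, with a median log2 difference of -1.15. Chac1, a glutathione-degrading enzyme, had 176.22, 161.69 and 17.90 RPKM with shNC and 13.10, 13.53 and 10.95 RPKM with shM5. Cth, which makes cysteine, had 159.77, 161.94 and 19.01 RPKM against 13.65, 15.04 and 14.66 RPKM. Slc7a11, the cystine importer, had 25.51, 26.28 and 3.55 RPKM against 2.78, 2.52 and 2.92 RPKM. In all 3 genes shNC 3 was above every shM5 library but far below the other controls, at a place of 0.11 to 0.14. Sesn2, a sestrin that restrains mTOR, had 28.92, 29.04 and 11.58 RPKM against 8.69, 9.22 and 8.70 RPKM. shNC 3 was the lowest control in all 44 genes. Without shNC 3, all 44 genes were lower without overlap, with a median of -1.68. In C18-4 cells none of 43 genes measured there had groups that did not overlap, and the median was -0.06.

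Stretches before the transcription start of some of these genes, and of the synthetase gene Gars described next, hold the C/EBP-ATF response element, the sequence that ATF4 binds together with C/EBP proteins, and they are shown because the group turns on this factor. The letters searched were TGATGNAA on both strands, from 250 bases before to 50 bases after the start, in sequences of RefSeq for the build GRCm38.p6. Of 257 matches over all windows, 6 shared bases with another motif searched. Capitals mark the match, and the reverse complement appears where the match was on the other strand.
Asns (chr6:7693216-7693241, minus strand): ccagccacaTGATGAAActtcccgca
Chac1 (chr2:119351040-119351065, plus strand): tccctgccgTTGCATCActcctgcca
Slc7a11 (chr3:50443644-50443669, minus strand): ctggagaatTTGCATCAtcatgcagc
Slc7a11 (chr3:50443663-50443688, minus strand): tcatgtggcTGATGCAAacctggaga
Jdp2 (chr12:85599374-85599399, plus strand): agccggggcTGATGCAAcccgtcccg
Vldlr (chr19:27216811-27216836, plus strand): cagcaatagTTGCATCAgcgctccta
Gars (chr6:55037962-55037987, plus strand): gctgcgctaTTTCATCAtgcaccggg
Of the 26 members of this list, 20 had promoters in the table, and 7 of their 26 promoter windows (26.9%) held the letters, against 252 of 11378 windows (2.21%) of all genes measured. The list was compiled from genes known to respond to ATF4, so this share is not independent of how it was made. Among all lower members 3.13% of windows held the letters, and among all higher members 2.01%. Asns, asparagine synthetase, had 528.77, 539.03 and 196.51 RPKM with shNC and 185.43, 188.56 and 176.56 RPKM with shM5. Jdp2, a repressor of the AP-1 family, had 33.36, 33.20 and 15.76 RPKM against 14.57, 15.51 and 14.75 RPKM, and Vldlr, a lipoprotein receptor, had 50.15, 54.64 and 21.82 RPKM against 20.15, 19.74 and 18.95 RPKM. In these 3 genes, named for their promoter match, the gap to shM5 was small beside the drop from shNC 1 and 2 to shNC 3.

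**Figure D4:**
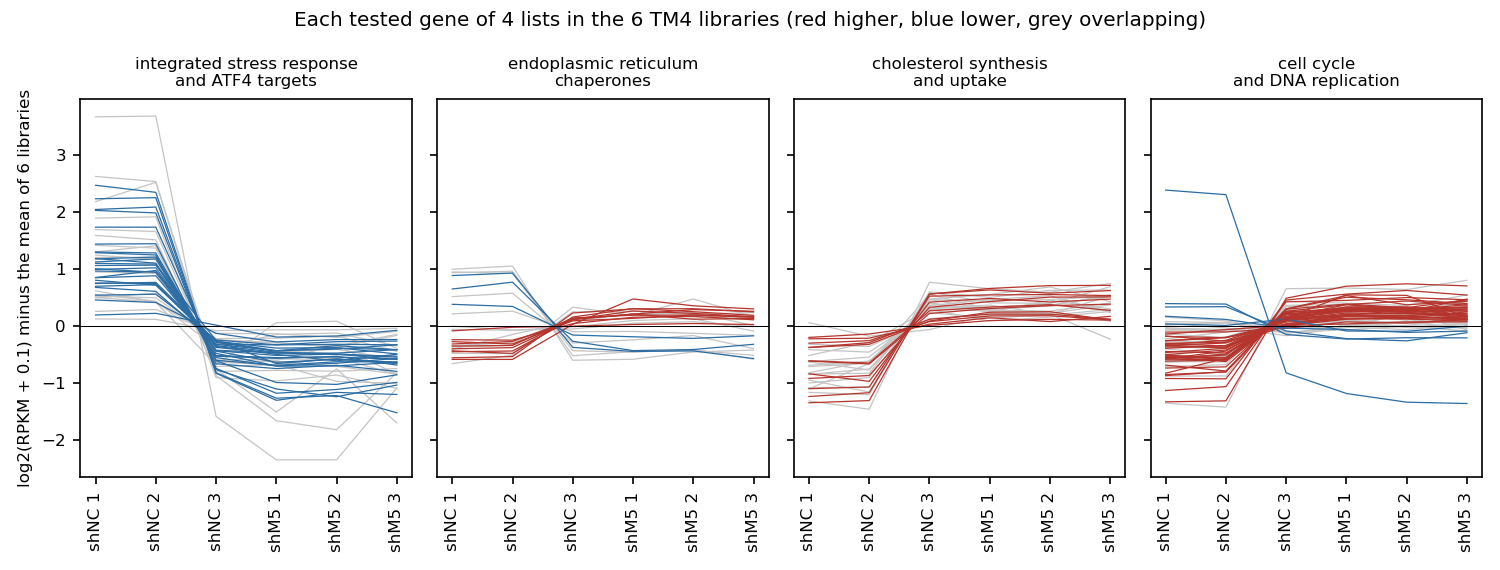
Each measured gene of 4 lists as a line over the 6 TM4 libraries (horizontal axis), as log2(RPKM + 0.1) minus its mean over the libraries (vertical axis), with members in red (higher) or blue (lower) and overlapping genes in grey. In all 4 lists the large step lies between shNC 2 and shNC 3, and the step from shNC 3 to the shM5 libraries is smaller.

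The aminoacyl-tRNA synthetases, which charge tRNAs with amino acids, differed in the same direction. Of 23 genes measured, 12 (52.2%) were lower and 2 (8.7%) higher, with a median log2 difference of -0.57. Gars, the glycyl-tRNA synthetase whose promoter stretch is given above, had 425.08, 432.53 and 206.86 RPKM with shNC and 197.85, 193.70 and 189.48 RPKM with shM5. Sars had 198.51, 197.67 and 93.28 RPKM against 89.64, 88.60 and 87.88 RPKM, and Cars had 112.27, 114.06 and 61.05 RPKM against 58.04, 58.14 and 55.46 RPKM. Here too shNC 3 lay just above the shM5 libraries. Aimp2, a scaffold of the synthetase complex, differed less, with 99.36, 101.40 and 94.26 RPKM against 85.37, 84.07 and 89.88 RPKM. Without shNC 3 the counts were 20 lower (87%) and 3 higher (13%).

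Endoplasmic reticulum chaperones and folding enzymes were higher more often than lower. Of 25 genes measured, 10 (40%) were higher and 3 (12%) lower, with a median log2 difference of 0.31, and without shNC 3 the counts were 15 (60%) and 8 (32%). Creld2, a secreted stress-inducible protein, had 34.91, 35.24 and 51.96 RPKM with shNC and 55.28, 58.40 and 57.18 RPKM with shM5. Dnajc3, a co-chaperone that inhibits the kinase PERK, had 19.00, 18.89 and 23.12 RPKM against 25, 25.26 and 24.23 RPKM. Ero1lb, an oxidase that drives disulphide formation, had 1.16, 1.16 and 1.83 RPKM against 2.53, 2.32 and 2.23 RPKM. In these genes all controls were below all shM5 libraries, with shNC 3 the highest control. Its relative Ero1l went the other way, with 459.36, 473.55 and 191.53 RPKM against 182.28, 183.45 and 167.24 RPKM. shM5 3 was the lowest shM5 library in 18 of the 25 genes (72%, against 47% of all genes measured).

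The endoplasmic reticulum stress element, CCAAT and CCACG with 9 bases of any kind between them on either strand, is the site of the unfolded protein response factor ATF6 with NF-Y. It was found in 5 of 12 promoter windows (41.7%) of the 13 members of this list, against 14 of 11378 windows (0.123%) of all genes measured. The windows are shown because the members with them were all on the higher side, and capitals mark the whole element, of which no match shared bases with another motif searched.
Creld2 (chr15:88819517-88819541, plus strand): tctCGTGGCGAGCCTCAATTGGtcc
Dnajc3 (chr14:118937824-118937848, plus strand): caaCCAATCAGCGCCAACCACGacc
Ero1lb (chr13:12565679-12565703, plus strand): cctCGTGGTCCCGCCTCATTGGccg
Pdia6 (chr12:17266488-17266512, plus strand): agaCCAATGAAAGGCGGCCACGgcg
Canx (chr11:50325797-50325821, minus strand): tgaCCAATCACCACGCTCCACGaag
This list, too, was compiled from genes known for that response. Among all higher members 6 of 1792 windows (0.335%) held the element, and among all lower members 0 of 1245. Pdia6, a disulphide isomerase, had 128.47, 130.29 and 183.81 RPKM with shNC and 203.59, 197.79 and 190.08 RPKM with shM5. Canx, the lectin chaperone calnexin, had 131.95, 137.80 and 139.67 RPKM against 142.55, 144.26 and 142.52 RPKM, a log2 difference of 0.07 ± 0.06 (SE). Both had separate groups, but the difference of Canx was about as large as its error. Hspa5, the main chaperone of the compartment, overlapped, with 765.99, 791.75 and 616.56 RPKM against 618.24, 604.53 and 589.17 RPKM.

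Immediate early genes and feedback genes of the MAP kinase pathway included 5 higher (13.5%) and 9 lower (24.3%) of 37 genes, with a median log2 difference of 0.07. Without shNC 3 the counts were 18 (48.6%) and 16 (43.2%). Myc, which drives growth and ribosome production, had 352.25, 346.14 and 127.44 RPKM with shNC and 98.68, 101.85 and 108.99 RPKM with shM5. Klf4, a zinc finger factor, had 10.10, 10.95 and 2.34 RPKM against 1.19, 1.37 and 1.79 RPKM. Atf3 and Klf6, described above, were the other genes of this list with wide gaps. In all of these shNC 3 was the lowest control and lay above every shM5 library.

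Chemokines, cytokines and their regulators held 8 lower (33.3%) and 3 higher (12.5%) of 24 genes, with a median log2 difference of -0.48. Ccl20, Ptgs2 and Cxcl1 had the widest gaps and are described above. Relb, a subunit of the transcription factor NF-kappaB, had 15.91, 15.73 and 9.94 RPKM with shNC and 7.37, 8.66 and 7.75 RPKM with shM5. Further lower members were the alarmin Il33, its receptor Il1rl1, the neurotrophin Bdnf and the cytokine Il11, with log2 differences from -0.76 to -0.35. The higher ones were Cxcl12, Nfkb1 and Nfkbia, whose product holds NF-kappaB in the cytoplasm, from 0.15 to 0.40. Of these, Cxcl12 and Il11 had shNC 3 values among the other controls. Without shNC 3, 17 genes of the list (70.8%) were lower and 5 (20.8%) higher.

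Interferon-stimulated genes showed how far the count depends on the control library. Of 43 genes measured, none was lower and 1 was higher, namely Psmb9, a subunit of the immunoproteasome, with 1.17, 0.72 and 1.13 RPKM against 1.55, 1.94 and 1.19 RPKM. The median log2 difference of the list was nevertheless -0.95. Without shNC 3, groups did not overlap for 39 lower genes (90.7%) and 1 higher gene, and the median was -1.74. Isg15, a ubiquitin-like protein chosen after its values were seen, had 150.28, 149.15 and 26.43 RPKM with shNC and 67.07, 60.44 and 18.81 RPKM with shM5. Replicate 3 was the lowest control in 41 of the 43 genes (95.3%, against 44.6% of all genes measured) and the lowest shM5 library in 42 of 43 (97.7%, against 47%). Replicate 3 was thus low in both groups for these genes, and the cause was not tested.

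Genes of cholesterol synthesis and uptake were higher with shM5. Of 29 genes measured, 12 (41.4%) were higher and none lower, with a median log2 difference of 0.70. Without shNC 3 the count was 28 higher (96.6%) and none lower, with a median of 1.03. Sc5d, a desaturase of the final steps, had 13.07, 12.62 and 23.41 RPKM with shNC and 24.87, 25.76 and 26.24 RPKM with shM5. Its shNC 3 value lay close to the shM5 libraries, at a place of 0.13. Acaca, acetyl-CoA carboxylase of fatty acid synthesis, had a smaller difference but a more separate control, with 18.97, 19.77 and 21.96 RPKM against 23.31, 23.65 and 23.45 RPKM. shNC 3 was the highest control in 28 of the 29 genes. In C18-4 cells the median of the list was 0.08, with 4 of 29 genes higher and 3 lower.

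Cell cycle and DNA replication genes held more higher members than any other list. Of 65 genes measured, 33 (50.8%) were higher and 5 (7.69%) lower, with a median log2 difference of 0.41, and without shNC 3 the counts were 55 (84.6%) and 7 (10.8%). Aurkb, a kinase of chromosome segregation, had 12.03, 12.18 and 42.71 RPKM with shNC and 49.50, 50.94 and 49.66 RPKM with shM5. Gins2, a part of the replicative helicase, had 56.14, 54.40 and 69.68 RPKM against 80.52, 80.72 and 80.65 RPKM. E2f1, the transcription factor that starts S phase, had 11.23, 11.95 and 18.29 RPKM against 20.90, 20.92 and 20.95 RPKM. The shM5 libraries agreed closely with each other for Gins2 and E2f1, and shNC 3 lay between them and the other controls. The 5 lower members were Gadd45a, the cyclin Ccnd2, the p53 regulator Mdm2, and the inhibitors Cdkn1a and Cdkn2b. Cdkn1a, which encodes p21, had the smallest difference of these 5, -0.12 on the log2 scale, with 49.89, 49.01 and 53.01 RPKM against 45.78, 45.63 and 48.59 RPKM, and shNC 3 was its highest control.

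The promoters of this list are shown for the E2F letters TTTNGCGC, searched on both strands, because E2f1 was itself a member. They were found in 10 of 37 windows (27%) of the 38 members, against 2.52% of the windows of all genes measured, and in 3.85% of the windows of all higher and 3.05% of all lower members. Many genes of this list are known targets of E2F, so this share, too, is not independent of how the list was made. Mcm5 and Mcm6 held further matches, of which 1 is shown for each. Of 300 matches over all windows, 1 shared bases with another motif searched, and capitals mark the match.
Cdk1 (chr10:69353027-69353052, minus strand): tccgctcccTTTCGCGCtctgcgctc
Mcm5 (chr8:75109347-75109372, plus strand): gccaagaacTTTCGCGCcaaaacgtc
Mcm6 (chr1:128359736-128359761, minus strand): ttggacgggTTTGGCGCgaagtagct
Orc1 (chr4:108579418-108579443, plus strand): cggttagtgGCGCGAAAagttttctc
Uhrf1 (chr17:56304119-56304144, plus strand): cgagtcgggTTTCGCGCgcccaggcg
Mcm5, of the helicase that opens replication origins, had 41.84, 42.45 and 83.61 RPKM with shNC and 90.77, 94.77 and 90.10 RPKM with shM5. Mcm6, of the same helicase, had 79.23, 82.41 and 93.65 RPKM against 106.77, 106.80 and 102.05 RPKM. Cdk1, the mitotic kinase, Orc1, of the origin recognition complex, and Uhrf1, which maintains DNA methylation, had log2 differences of 0.59, 0.90 and 0.95. shNC 3 of Mcm6 lay at 0.44, near the midpoint, and that of the other 4 genes at 0.03 to 0.12.

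Ribosome biogenesis genes were on the lower side, with 19 lower (31.7%) and none higher of 60 measured and a median log2 difference of -0.33. Without shNC 3, 49 (81.7%) were lower and 3 (5%) higher. Nop14, a processing factor of the small subunit, had 196.57, 196.33 and 72.14 RPKM with shNC and 63.68, 62.85 and 65.20 RPKM with shM5. Ltv1, an assembly factor of the same subunit, had 49.57, 49.85 and 33.88 RPKM against 28.33, 28.73 and 30.76 RPKM, and Utp20 had 21.67, 22.33 and 17.94 RPKM against 14.84, 15 and 16.95 RPKM. shM5 3 was the highest shM5 library in 52 of the 60 genes, so it stood nearest to the controls. Ribosomal protein genes included 10 higher (12.7%) and 2 lower (2.53%) of 79, and 46 (58.2%) and 6 (7.59%) without shNC 3. Rps14 had 633.15, 632.93 and 696.63 RPKM against 761.57, 782.98 and 796.08 RPKM, and Rpl12 had 2997.13, 3032.50 and 2631.58 RPKM against 2508.87, 2463.48 and 2512.91 RPKM. Ribosomal protein genes often have near-identical pseudogenes, and how reads shared with them were counted is not stated.

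Of 77 oxidative phosphorylation subunits, 18 (23.4%) were higher and 1 (1.3%) lower, with a median log2 difference of 0.14, and the counts were 47 (61%) and 9 (11.7%) without shNC 3. Uqcrh, of complex III, had 96.35, 92.86 and 164.48 RPKM with shNC and 195.48, 187.60 and 174.56 RPKM with shM5, and Ndufa8, of complex I, had 56.05, 53.40 and 74.00 RPKM against 78.22, 80.90 and 81.46 RPKM. Sdha, of complex II, had 53.56, 53.52 and 55.34 RPKM against 59.76, 58.30 and 58.50 RPKM, and shNC 3 lay nearer to the other controls. Of 28 genes of glycolysis and lactate transport, 5 (17.9%) were higher and 3 (10.7%) lower, with a median of 0.35, and the counts were 22 (78.6%) and 6 (21.4%) without shNC 3. Pfkm, the muscle phosphofructokinase, had 11.62, 11.07 and 21.41 RPKM against 23.61, 25.80 and 22.28 RPKM, while Hk2, a hexokinase, had 30.78, 30.82 and 25.77 RPKM against 24.99, 23.65 and 24.62 RPKM. Ndrg1, a stress gene in this list, had 229.93, 226.78 and 119.99 RPKM against 101.24, 100.55 and 90.40 RPKM.

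Antioxidant and glutathione genes held 5 higher (13.5%) and 8 lower (21.6%) of 37, and 19 (51.4%) and 10 (27%) without shNC 3. Mt2 and Slc7a11 had the widest gaps. Sqstm1, the autophagy receptor p62, had 484.35, 462.93 and 110.39 RPKM with shNC and 85.33, 88.33 and 97.42 RPKM with shM5, and Gsta4, a glutathione transferase, had 2.23, 2.45 and 2.80 RPKM against 3.66, 3.22 and 3.59 RPKM. Lysosome and autophagy genes held 1 higher (2.5%) and 10 lower (25%) of 40, with a median of -0.14, and 5 (12.5%) and 27 (67.5%) without shNC 3. Npc1, which exports cholesterol from lysosomes, had 15.68, 14.51 and 12.66 RPKM against 10.82, 11.60 and 10.38 RPKM. Atp6v1a and Atp6v1h, subunits of the proton pump, had log2 differences of -0.31 ± 0.09 and -0.58 ± 0.17 (SE). For Atp6v1a shNC 3 was nearer to the other controls, and for Atp6v1h nearer to shM5.

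Genes of PI3K, Akt and mTOR signalling held 4 higher (10.3%) and 8 lower (20.5%) of 39, with a median of -0.03, and 15 (38.5%) and 17 (43.6%) without shNC 3. Beside Sesn2, the widest gaps were those of Sesn1, another sestrin, with 2.90, 2.46 and 4.22 RPKM with shNC and 4.83, 4.66 and 4.96 RPKM with shM5, and Pik3r3, a regulatory subunit of PI3K. Eif4ebp1, a translation repressor under mTOR, had 854.43, 804.36 and 400.97 RPKM against 360.47, 373.68 and 366.77 RPKM. The muscarinic and Gq list held 2 lower (13.3%) and no higher genes of 15, and 7 lower (46.7%) and 6 higher (40%) without shNC 3. Gnaq, the alpha subunit of Gq, had 12.73, 12.88 and 12.15 RPKM against 10.89, 11.17 and 11.16 RPKM, with shNC 3 near the other controls. Egfr, the epidermal growth factor receptor, had 9.39, 9.61 and 10.07 RPKM against 7.82, 8.53 and 7.99 RPKM, with shNC 3 the highest control. Both differences were small, -0.18 ± 0.08 for Gnaq and -0.25 ± 0.09 for Egfr (log2, SE).

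Cell junctions were the main interest of the study. Of 18 tight junction genes, 3 (16.7%) were higher and 2 (11.1%) lower, which is near the shares of all genes, and without shNC 3 the counts were 6 (33.3%) and 9 (50%). Pard3, a polarity protein of tight junctions, had 51.25, 50.28 and 27.44 RPKM with shNC and 23.82, 23.91 and 24.33 RPKM with shM5, and its partner Pard6b had 2.41, 2.04 and 2.25 RPKM against 2.63, 2.65 and 3.35 RPKM. Of 17 adherens junction genes, 2 were higher (11.8%) and 1 lower (5.88%), against 10 (58.8%) and 4 (23.5%) without shNC 3. Vcl, the actin linker vinculin, had 36.09, 35.99 and 70.69 RPKM against 72.13, 73.73 and 76.66 RPKM. None of 3 gap junction genes was a member with all libraries, while without shNC 3 all 3 were higher, with a median log2 difference of 0.45. By immunofluorescence, the study reported less of every junction protein it examined in TM4 cells given shM5, whereas the values here are of RNA. Of the genes of these proteins, Ocln, Cldn11, Gja4 and Cdh1 were below 0.5 RPKM on average, with at most 0.29 RPKM in any library. F11r, Gja1, Tjp1 and Ctnnd1 were measured and overlapped, and so did Ctnnb1, another catenin gene. Gja1, which encodes connexin 43, had 83.99, 87.20 and 127.39 RPKM against 108.55, 109.92 and 115.82 RPKM, and F11r, which encodes JAM1, had 41.65, 44.07 and 19.46 RPKM against 21.99, 21.27 and 19.67 RPKM. In both, shNC 3 lay on the far side of the shM5 libraries.

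Phldb2, which anchors microtubules at the cell cortex and binds phosphoinositides, was lower with shM5. Its values were 50.25, 51.37 and 29.94 RPKM with shNC and 25.77, 25.34 and 29.11 RPKM with shM5, a log2 difference of -0.67 ± 0.22 (SE). The groups were separated by 0.83 RPKM, the distance from shNC 3 to shM5 3, and without shNC 3 the difference was -0.93. The study reported lower expression of this gene in TM4 cells, and less of its protein by immunofluorescence. Of 14 genes of its network, Phldb2 was the only lower member (7.14%), and the only higher one (7.14%) was Kank2, a partner at focal adhesions, with 14.16, 13.81 and 20.19 RPKM against 22.04, 23.03 and 21.90 RPKM. Without shNC 3, 6 genes of the network were higher (42.9%) and 7 lower (50%).

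Extracellular matrix genes held 10 higher (17.2%) and 2 lower (3.45%) of 58, with a median log2 difference of 0.26, and without shNC 3 the counts were 35 (60.3%) and 12 (20.7%). Mmp9, a gelatinase, had 1.23, 1.24 and 1.70 RPKM with shNC and 2.08, 2.71 and 2.24 RPKM with shM5. Postn, periostin, had 0.35, 0.32 and 0.35 RPKM against 0.96, 0.86 and 0.42 RPKM, and Timp3, a metalloproteinase inhibitor, had 3.55, 4.17 and 2.47 RPKM against 2.05, 2.22 and 2.08 RPKM. For Postn the 3 controls were alike and shM5 3 was close to them. Col1a1, the main collagen of connective tissue, had 141.87, 130.76 and 216.40 RPKM against 271.21, 290.67 and 223.48 RPKM. shM5 3 was the lowest shM5 library in 45 of the 58 matrix genes (77.6%, against 47% of all genes measured). Integrin and focal adhesion genes held 3 higher (12%) and 1 lower (4%) of 25, and 14 (56%) and 5 (20%) without shNC 3. The lower gene was Itgb7, an integrin of leukocytes, with 2.47, 2.30 and 2.82 RPKM against 0.92, 0.92 and 1.57 RPKM, and here shNC 3 was the highest control. Actin cytoskeleton genes held 8 higher (16%) and 6 lower (12%) of 50, and 34 (68%) and 11 (22%) without shNC 3. Rhob, a small GTPase, had 162.64, 161.01 and 91.67 RPKM against 75.52, 70.66 and 81.74 RPKM, and Cnn3, a calponin, had 136.05, 139.91 and 160.68 RPKM against 170.26, 173.95 and 168.84 RPKM.

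Among secreted factors of Sertoli cells, 4 (16%) were higher and 5 (20%) lower of 25, and without shNC 3 both counts were 12 (48%). Beside Gdnf, the lower members included Kitl, the stem cell factor of differentiating spermatogonia, with 49.50, 49.41 and 22.73 RPKM with shNC and 18.42, 18.45 and 21.99 RPKM with shM5. Kitl was chosen after its values were seen. Cxcl12, a chemokine of the stem cell niche, had 12.45, 13.36 and 12.97 RPKM against 16.79, 15.62 and 14.66 RPKM, Wnt5a had 6.96, 6.44 and 6.83 RPKM against 8.10, 8.18 and 7.68 RPKM, and Igf1 had 0.51, 0.65 and 0.69 RPKM against 0.88, 1.18 and 0.78 RPKM. For these higher factors shNC 3 was among or nearer to the other controls. Genes of TGF-beta, BMP and Notch signalling held 5 higher (16.1%) and 1 lower (3.23%) of 31, against 14 (45.2%) and 8 (25.8%) without shNC 3, led by the Notch target Hes1 with 2.95, 2.29 and 6.11 RPKM against 7.28, 7.35 and 7.44 RPKM. Chromatin remodelling genes held 4 higher (11.4%) and 5 lower (14.3%) of 35, and 16 (45.7%) and 12 (34.3%) without shNC 3. Smarcb1, a core subunit of SWI/SNF, had 44.78, 43.58 and 42.93 RPKM against 39.61, 39.89 and 40.06 RPKM, and Dnmt1, the maintenance methyltransferase, had 25.70, 25.62 and 47.89 RPKM against 52.20, 54.16 and 49.72 RPKM.

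The C18-4 libraries share no sample with the TM4 contrast, so there the members could be tested. Of the 1680 higher members measured in both lines, 199 (11.8%) were also higher in C18-4 cells without overlap, and 127 (7.56%) were lower there. Of the 1156 lower members, 113 (9.78%) were also lower and 71 (6.14%) were higher. Over all 10460 genes measured in both lines, 9.1% were higher and 9.2% lower in C18-4 cells without overlap. The members that went the same way were 20.9% of the 952 higher C18-4 genes and 11.7% of the 962 lower ones. Of the 10460 genes, 1680 were higher and 1156 lower members. The 20.9% lay above the share of higher members, while the 11.7% was near that of lower members. With limma, 12 of the 2836 members measured in both lines had an adjusted p below 0.05 in C18-4 cells in the same direction. In the opposite direction there were 2, and 48 of all 10460 genes (0.459%) were called. A further fit took the replicate number as a block, although the titles give only numbers and no pairing. With it the counts were 216 and 119, where 1198 genes (11.5%) were called. Counted in both directions together, members were called about as often as all genes in each of these fits.

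**Figure D5:**
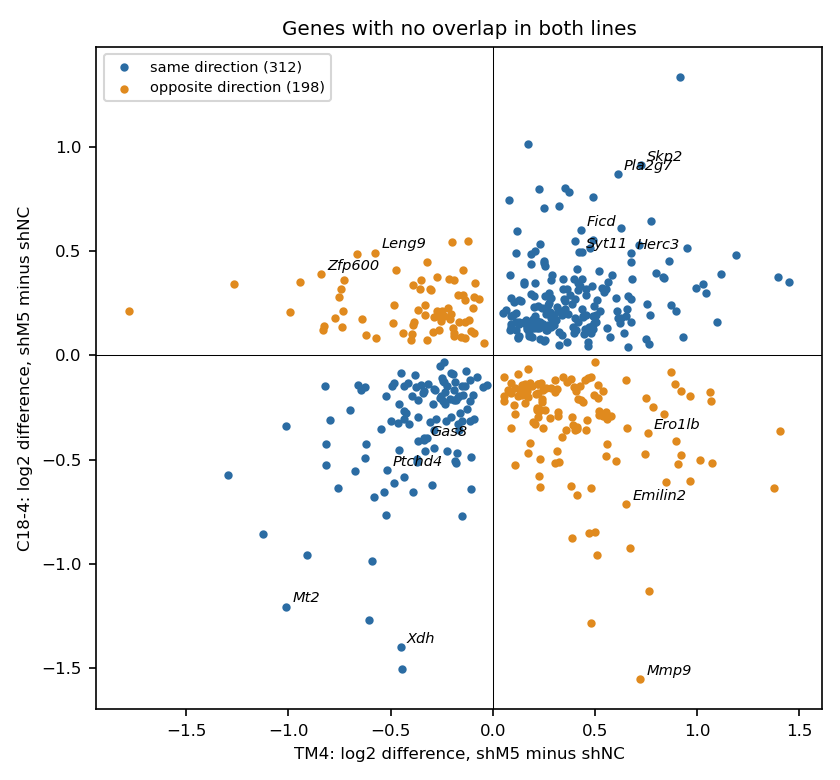
Log2 difference between shM5 and shNC in TM4 cells (horizontal axis) and in C18-4 cells (vertical axis) for the 510 member genes whose groups did not overlap in both lines, 312 in the same direction (blue) and 198 in opposite directions (orange). Mt2 and Xdh lie low in both lines, Skp2 and Pla2g7 high in both, and Mmp9 is high in TM4 cells and low in C18-4 cells.

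Xdh had 7.15, 7.59 and 11.46 RPKM in C18-4 shNC 1 to 3 and 2.91, 3.14 and 3.50 RPKM in shM5 1 to 3, and it fell by 1.40 ± 0.19 on the log2 scale (SE, limma adjusted p = 0.041). Skp2, a ubiquitin ligase subunit that drives cells into S phase, had 17.23, 16.73 and 28.10 RPKM in TM4 shNC and 32.80, 34.31 and 32.65 RPKM in TM4 shM5. In C18-4 cells it had 18.82, 18.26 and 15.95 RPKM against 34.83, 36.28 and 29.35 RPKM and rose by 0.92 ± 0.11 (log2, SE, limma adjusted p = 0.0367). Levels of Skp2 were alike in both lines, but in TM4 cells shNC 3 lay nearer to shM5. Pla2g7, a phospholipase that degrades platelet-activating factor, had 2.41, 2.13 and 2.45 RPKM against 3.90, 3.44 and 3.49 RPKM in TM4 cells, and 2.74, 2.53 and 2.94 RPKM against 4.78, 5.07 and 5.41 RPKM in C18-4 cells. It rose there by 0.87 ± 0.12 (log2, SE, limma adjusted p = 0.041). Mt2 had 85.65, 80.12 and 134.78 RPKM against 35.91, 37.53 and 55.68 RPKM in C18-4 cells, with a limma adjusted p of 0.0985 and of 1.58e-04 with the replicate block. In Mt2, Xdh and Pla2g7 shNC 3 of TM4 lay nearer to the other controls than to the shM5 mean. That the groups of these genes did not overlap in either line follows from how they were chosen.

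The other genes called in C18-4 cells in the same direction were Gng12, Cd81, Mcam, Tjap1, Fkbp10, Slc4a4, Tmem234 and the predicted genes Gm42102 and Gm46911. Gng12, a G protein gamma subunit, had 58.74, 55.39 and 52.71 RPKM against 31.85, 31.69 and 33.89 RPKM in C18-4 cells, and 97.50, 101.95 and 96.75 RPKM against 92.08, 88.19 and 86.97 RPKM in TM4 cells. Over all genes fitted in both lines, limma called the interaction of line and shM5 for 12 of 11773 (0.102%), and since it uses the TM4 values that chose the members, nothing is read from it for them. Further genes without overlap in either line and in the same direction included Herc3, Ficd, Syt11, Ptchd4 and Gas8. Ficd, which modifies the chaperone BiP, had 1.67, 1.57 and 1.56 RPKM against 2.14, 2.2 and 2.23 RPKM in TM4 cells, and Gas8, of the dynein regulatory complex of cilia, had 28.41, 28.50 and 28.14 RPKM against 21.71, 21.54 and 24.10 RPKM. Their C18-4 adjusted p values by limma were 0.161 and 0.138, and 0.0254 and 0.0172 with the replicate block. Phldb2 had 78.19, 79.74 and 83.41 RPKM against 49.43, 52.36 and 62.99 RPKM in C18-4 cells, with an adjusted p of 0.0768 by limma and of 0.00251 with the replicate block.

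Further promoter motifs and transcript features were compared between the members and all genes measured. Over promoters from RefSeq, available for 8897 of the 11016 genes with 11378 windows, the E-box CACGTG was in 6.7% of windows of higher and 12.6% of lower members, against 10.1% of all. The cyclic AMP response element TGACGTCA was in 2.96% and 3.61% against 3.15%, and the AP-1 site TGANTCA in 4.97% and 4.9% against 5.04%. The median transcript length was 3386 bases for higher and 3673 bases for lower members, against 3431 for all genes, and the median GC content was 50.2% and 47.9% against 49.5%.

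At the edge of the rule, Kifc2, a kinesin with a mean of 0.50 RPKM, was just inside the limit on the mean, and Hykk, a hydroxylysine kinase whose groups also did not overlap, was just outside it with 0.495 RPKM. Atp5k, a subunit of ATP synthase, was just inside the limit on overlap, with 212.85 RPKM in shNC 3 and 212.89 RPKM in shM5 3. Fcgr4, an immunoglobulin receptor, was just outside, with 0.75 RPKM in both shNC 3 and shM5 1.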

How the data were processed

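TM4 and C18-4 cells were each measured in 3 shNC and 3 shM5 libraries of oligo(dT)-selected mRNA sequenced on an Illumina HiSeq. The authors aligned reads with SOAPaligner and deposited RPKM values with 2 decimals for 17995 genes. The genome build is not given in the sources used here, and the methods name RPKM and FPKM. Depth in reads is unknown, so no counting interval is given.

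Columns were matched to samples by title. Values were transformed to log2(RPKM + 0.1), which understates differences of low genes, and genes averaging 0.5 RPKM or more were fitted with limma 3.58.1 (trend, R 4.3.3), with Benjamini-Hochberg adjustment over all genes fitted. Steps were tested on simulated data. The members and lists were chosen with earlier results of these data known. Genes were named as the 15 widest gaps per direction with a mean of at least 5 RPKM, up to 4 members of each list by gap, the receptors and junction genes of the study, up to 10 members with the same and 5 with the opposite direction in both lines, and those nearest to the limits. Other genes are said to be chosen after their values were seen or by a promoter match. Same-numbered C18-4 libraries deviated together (correlations 0.439, 0.409 and 0.631). So did shNC 1 with shM5 2 (0.341) and shNC 2 with shM5 1 (0.345), so these numbers do not establish pairs. Values with the replicate block are given there as an alternative. Alternatives covered the pseudocount, filter, scaling, trend, block and each library left out. Symbols mangled into dates were not named. Some named genes are not reported here.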

Additional observations from a re-analysis of the deposited data

Results flagged for a closer look

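In 5 genes every shM5 library lay on one side of every shNC library in TM4 cells and on the opposite side in C18-4 cells, and each is given with the difference between the effects (TM4 minus C18-4, log2). They were the 5 of the 198 genes of this kind in which the smaller of the gaps in the lines was widest. Since they were chosen for this pattern, with the TM4 values that made them members, the difference was not tested and is a description. Mmp9, the gelatinase, had a difference of 2.27, with 1.03, 0.79 and 0.78 RPKM in C18-4 shNC and 0.18, 0.38 and 0.16 RPKM in C18-4 shM5. Ero1lb had a difference of 1.13, with 6.15, 5.90 and 6.17 RPKM against 4.73, 4.38 and 4.89 RPKM in C18-4 cells.

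Emilin2, a matrix glycoprotein, had a difference of 1.37, with 0.40, 0.52 and 0.56 RPKM against 0.68, 0.95 and 0.87 RPKM in TM4 cells and 1.13, 1.05 and 1.19 RPKM against 0.58, 0.66 and 0.70 RPKM in C18-4 cells. Zfp600, a zinc finger protein, had a difference of -1.23, with 5.59, 5.44 and 3.56 RPKM against 2.59, 2.33 and 2.97 RPKM in TM4 cells and 9.67, 10.02 and 10.76 RPKM against 13.31, 12.79 and 13.93 RPKM in C18-4 cells. Leng9 had a difference of -1.07, with 2.88, 2.40 and 2.01 RPKM against 1.61, 1.66 and 1.48 RPKM in TM4 cells and 1.14, 1.31 and 1.33 RPKM against 1.73, 1.71 and 2.01 RPKM in C18-4 cells.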

How the results depend on the processing

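The counts turned on replicate 3. Leaving out 1 library at a time gave 1845 to 4677 higher and 1285 to 4022 lower genes without overlap, with the most without shNC 3 and 2919 higher and 1877 lower without shM5 3. Size factors gave 1377 higher and 1561 lower. Limma then called 0 to 4031 higher and 0 to 3399 lower genes at an adjusted p of 0.05, and 0 to 460 and 0 to 435 at the threshold of the study, above 0 only without shNC 3. Without replicate 3 of both groups, chosen after seeing the data, 5169 higher and 4281 lower genes did not overlap, and limma called 4410 and 3593, or 528 and 488 at the threshold of the study. A gap of at least 0.1 left 475 higher and 314 lower genes, and a gap wider than both ranges, also chosen after seeing the data, 71 and 38. Same-numbered TM4 libraries did not deviate together in every pair (correlations 0.0729, 0.0489 and 0.127), and with the replicate block limma called 0 genes, with 2568 at an unadjusted p below 0.05. In C18-4 cells, 12 members were called in the same direction, 1 with no filter, 7 with no trend, 216 with the replicate block, and 0 to 24 with 1 library left out (24 without shNC 3, 7 without shM5 3, 0 without any other). In the opposite direction 2 were called, 0 with no filter or no trend, 1 with size factors, 119 with the block, and 0 to 14 (14 without shNC 3). The interaction of line and shM5 was called for 12 of all genes fitted, 21 with no filter, 5 with size factors, 27 with a pseudocount of 1, 2 with the block, and 0 to 4483 (4483 without TM4 shNC 3). Of 450 alternative values of the 30 genes with the widest gaps, 390 kept direction and side of the threshold and 60 passed it, all without shNC 3. The cause was not tested.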
